A study of Mus musculus with 9 samples.

Results

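The genes described here are the 10 immediate early transcription factor genes Fos, Fosb, Fosl1, Fosl2, Jun, Junb, Jund, Egr1, Egr3 and Myc. They were taken by gene symbol from a table of 24346 genes. No cut on their values was applied, but the genes were chosen with earlier results of these data known. RNA had been sequenced from the IS-caput epididymis of mice 14 weeks old, that is, the initial segment kept together with the caput, in 3 libraries each of Nicol-/-, Ros1-/- and Nicol+/- animals. Nicol-/- mice are homozygous for a CRISPR/Cas9 deletion of the whole coding sequence of Nicol (Gm1673, spelled Nicole in the sample labels), Ros1-/- mice lack the receptor tyrosine kinase gene Ros1, and Nicol+/- mice carry 1 deleted and 1 intact Nicol allele. Both deletions are present throughout the body, so in these libraries an effect in the testis, where NICOL is also made, and an effect in the epididymis cannot be told apart. The paper reported that a Nicol transgene active only in testicular germ cells restored initial segment differentiation and fertility in Nicol-/- males. It did not report the 10 genes described here in that rescue. No wild-type and no Ros1+/- library was analysed, so both knockouts were set against the same 3 Nicol+/- libraries, and each Ros1-/- value also stands against a Nicol heterozygote. Nothing in the labels says that the libraries came from separate animals, so a p-value measures the spread between these libraries only.

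FOS and JUN family proteins bind DNA as dimers named AP-1, JUN proteins with themselves or with a FOS protein and FOS proteins only with a partner. Fos, Fosb, Jun, Junb and Egr1 are switched on within minutes of a stimulus such as a growth factor, without new protein synthesis. Their transcripts are then lost quickly. Fos and Egr1 are induced mainly by the kinase ERK acting on ternary complex factors and serum response factor and by kinases acting on CREB. Fosl1 and Fosl2 follow later and are themselves AP-1 targets, Jund is usually made at a steady level, EGR proteins are zinc finger activators held back by NAB corepressors, and MYC with its partner MAX drives genes of growth and ribosome making. In the initial segment, ROS1 signalling acts through ERK, which is why these genes bear on the comparison of the knockouts.

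The promoters of Fos, Jun and Junb are shown because these genes moved together between libraries, with the recognisable regulatory letters in capitals. The sequences are those of RefSeq for GRCm38.p6, 5′ to 3′ on the strand of the gene, as the 250 bases that end just before the transcript start. RefSeq windows were matched for 6 of the 10 genes: Fos, Fosb, Fosl2, Jun, Junb and Jund. Capitals mark TGACG, the core of the cAMP response element (CRE) bound by CREB and ATF proteins, TGACATCA, the CRE-like element known from Jun promoters, and TATAAA, the TATA box. The Fos window is chr12:85473640-85473889 on the plus strand, the Jun window chr4:95052223-95052472 on the minus strand and the Junb window chr8:84978749-84978998 on the minus strand.
Fos: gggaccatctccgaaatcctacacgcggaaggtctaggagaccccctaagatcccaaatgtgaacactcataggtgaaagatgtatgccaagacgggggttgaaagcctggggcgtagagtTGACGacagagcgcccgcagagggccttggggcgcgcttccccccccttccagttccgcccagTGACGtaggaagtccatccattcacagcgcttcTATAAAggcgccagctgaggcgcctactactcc
Jun: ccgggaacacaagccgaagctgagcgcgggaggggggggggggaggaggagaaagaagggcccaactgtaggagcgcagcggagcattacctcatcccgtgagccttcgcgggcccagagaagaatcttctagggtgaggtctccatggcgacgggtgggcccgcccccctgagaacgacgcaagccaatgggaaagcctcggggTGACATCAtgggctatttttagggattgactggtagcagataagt
Junb: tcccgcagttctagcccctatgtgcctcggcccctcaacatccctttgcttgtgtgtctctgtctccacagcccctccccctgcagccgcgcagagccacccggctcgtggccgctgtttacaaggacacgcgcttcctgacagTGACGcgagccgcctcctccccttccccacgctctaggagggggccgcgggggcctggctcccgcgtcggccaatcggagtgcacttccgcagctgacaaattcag

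For Fosb, whose RefSeq span reaches upstream of the transcript start used for the window, only the 30 bases around its TGACG are shown, at chr7:19310088-19310117 on the minus strand.
Fosb: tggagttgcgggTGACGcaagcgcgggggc

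The search took both strands and 9 patterns. Of the 32851 promoter windows of 250 bases, 17.8% held TGACG and 1.55% the full CRE TGACGTCA, which contains TGACG on both strands. The AP-1 site TGANTCA was in 6.75%, TGACATCA in 2.93% and a CArG box, which serum response factor binds, in 1.47%. The ETS pattern CCGGAA was in 12%, the E-box CACGTG bound by MYC and MAX in 6.02%, the EGR site GCGNGGGCG in 4.7% and TATAAA in 12.4%. The Fos window held TGACG at 2 places, 129 and 66 bases before the start, and a TATA box 33 bases before it. Fosb had TGACG once, 60 bases before the start, and an EGR site 50 bases before it, while Junb had it once, 106 bases before its start. The Jun window held TGACATCA 45 bases before the start and the Fosl2 window an EGR site 79 bases before it. Jund had none of the 9 patterns in this window. No window of the 6 genes held the patterns used for a full CRE, an AP-1 site, a CArG box, an ETS site (CCGGAA) or an E-box. The shorter letters GGAA, which the printed Fos window contains, were not searched, nor were bases further upstream. The search therefore does not show that these genes lack ETS or serum response factor sites.

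**Figure D1:**
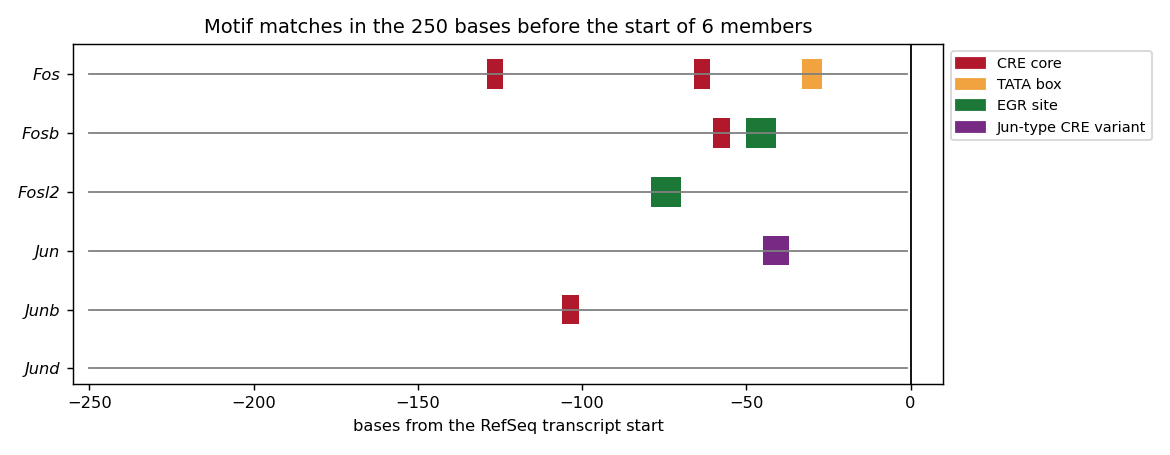
Positions of the motif matches in the 250 bases before the RefSeq start of 6 genes (x axis, bases from the start; blocks, matches drawn to scale; each row, 1 gene). TGACG lies in Fos, Fosb and Junb, the CRE-like element in Jun, EGR sites in Fosb and Fosl2, and the row of Jund is empty.

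The level is a normalized FPKM, read counts per length of transcript and per depth of library, scaled between libraries by the authors, and it can be compared between genes because it is per length. A gene entered the tests when 3 or more of the 9 libraries had 1 FPKM or more, which held for 13647 genes and for 8 of the 10 described here. The others were near 0 in each genotype. Egr3, a zinc finger relative of Egr1, lay between 0.0296 and 0.202 FPKM in Nicol-/-, 0.0547 and 0.127 FPKM in Ros1-/- and 0.017 and 0.159 FPKM in Nicol+/-. Fosl1, which encodes FRA1, was listed at 0 in 7 of the 9 libraries, at 0.0419 FPKM in Nicol-/- replicate 3 and at 0.0435 FPKM in Nicol+/- replicate 3.

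Among the tested genes the Jun family had the highest levels in each genotype, with Egr1 beside it in Nicol-/- and Nicol+/-. Means are given with the SD of 3 libraries. In Nicol-/- the means ran from Junb (91.1 ± 68.8 FPKM) through Egr1 (74.9 ± 69.4), Jun (63.9 ± 58.8), Jund (61.5 ± 14.4), Fos (48.4 ± 60.1), Fosl2 (14.3 ± 3.09) and Fosb (8.53 ± 11.9) to Myc (3.08 ± 0.355), and the libraries of each gene overlapped those of the next. In Ros1-/- the order was Jund (49.9 ± 7.92 FPKM), Junb (36.0 ± 13.3), Jun (24.8 ± 11.2), Fosl2 (16.5 ± 0.318), Egr1 (10.8 ± 9.38), Fos (6.56 ± 6.35), Myc (2.77 ± 0.588) and Fosb (0.932 ± 0.64), where Jun and Fosl2 just did not overlap, Myc and Fosb did not overlap, and the other neighbours did. In Nicol+/- it was Junb (69.6 ± 24.0 FPKM), Jund (60.1 ± 7.78), Egr1 (59.2 ± 30.6), Jun (57.7 ± 24.5), Fos (38.9 ± 29.7), Fosb (11.3 ± 8.4), Fosl2 (10.4 ± 2.32) and Myc (1.83 ± 0.128), and only Fosl2 and Myc were separated among neighbours. Egr1 and Fos thus stood below Fosl2 in the Ros1-/- mean and above it in the means of the other genotypes.

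**Figure D2:**
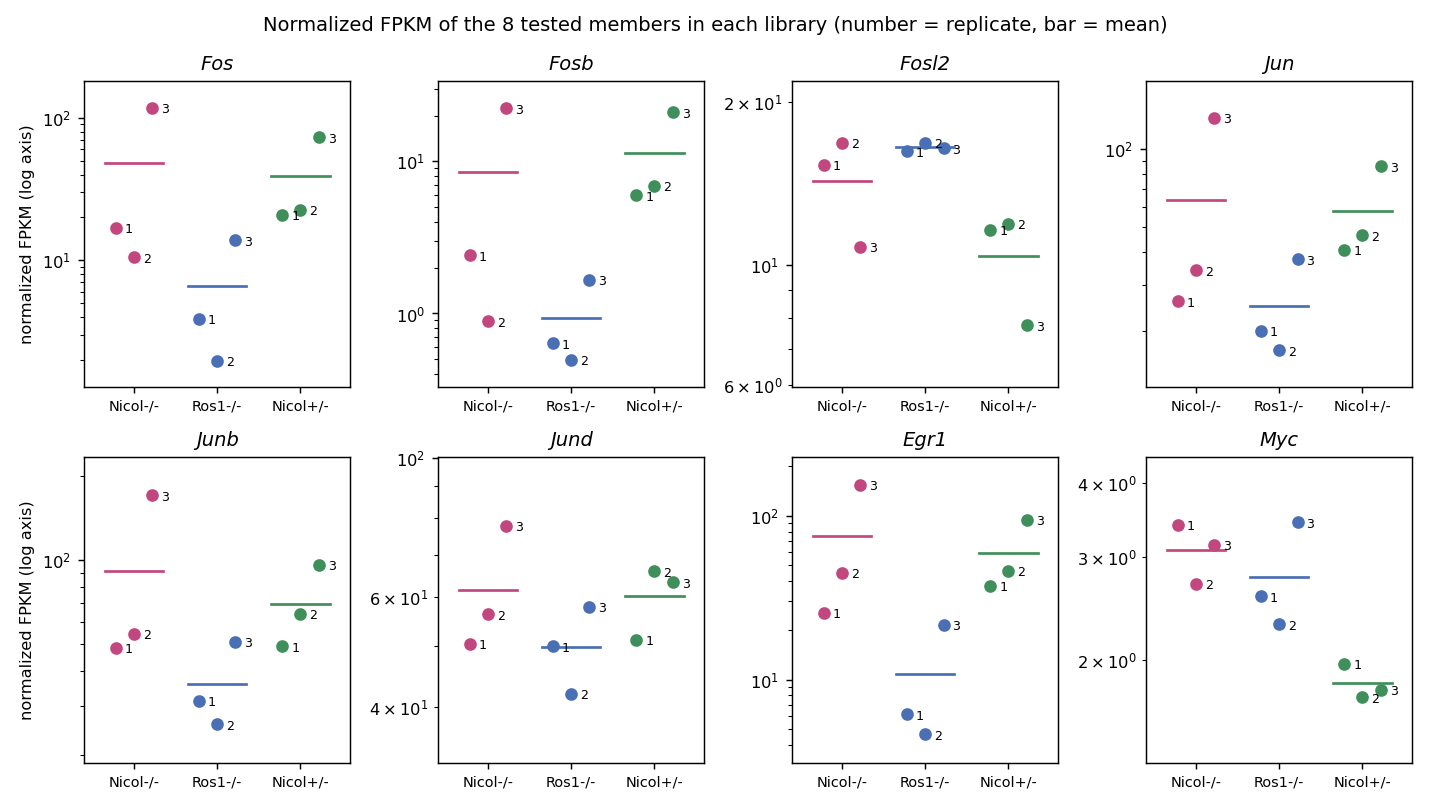
Normalized FPKM (y axis, logarithmic, a separate scale for each gene) of the 8 tested genes in Nicol-/-, Ros1-/- and Nicol+/- libraries (x axis); points are libraries labelled by replicate number and bars are means of 3. The point labelled 3 is the highest of its genotype in all 3 genotypes for Fos, Fosb, Jun, Junb and Egr1, and the Ros1-/- points of Fos, Fosb, Jun and Egr1 all lie below the Nicol+/- points.

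A gene was called when limma's moderated test on log2(FPKM + 1), fitted to all 9 libraries, gave a Benjamini-Hochberg adjusted p under 0.05 over the 13647 genes. All fold changes below are on that log2(FPKM + 1) scale, which understates changes of low genes. In Nicol-/- against Nicol+/-, 1 of the 8 tested genes, Myc, was called higher and 0 were called lower, where 8.95% of all tested genes were called higher and 11.9% lower. At an unadjusted p under 0.05 the counts were 2 higher and 0 lower. The share of all genes at that cut is not given here, so these counts cannot be weighed. This fit had no replicate block. With the replicate number fitted as a block over the 6 libraries compared, Fosl2 was called in place of Myc (limma adjusted p = 0.0455 for Fosl2 and 0.0586 for Myc). In Ros1-/- against Nicol+/-, 1 of the 8, Egr1, was called lower and 1, Fosl2, was called higher, beside 13.3% and 9.52% of all tested genes. Both counts are near what those shares would give for 8 genes. Between the knockouts, Ros1-/- against Nicol-/-, 0 of the 8 were called in either direction, where 1.55% of all genes were. At an unadjusted p under 0.05, 3 were lower, again without a share of all genes to set beside them.

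The libraries numbered 3 stood apart for several of these genes. The median of the 8 genes in replicate 3 stood above the mean of replicates 1 and 2 by 1.91 (log2) in Nicol-/-, 0.8 in Ros1-/- and 0.86 in Nicol+/-, while the median of all tested genes differed by 0.02, -0.01 and 0.02. Fos, Fosb, Jun, Junb and Egr1 were highest in replicate 3 of all 3 genotypes. So were 22 of 44 tested genes on a list of other immediate early genes, beside 861 of 13647 tested genes (6.31%). Among all tested genes, 6 were more than 1 (log2) above replicates 1 and 2 in replicate 3 of every genotype, chosen here after their values were seen. They were Fos, Egr1, Cyr61, which encodes a matrix-bound growth regulator, Dusp1, a phosphatase that switches off MAP kinases, and the small nucleolar RNAs Snora16a and Snora31. What the libraries numbered 3 share is not stated in the labels, and a batch, a dissection time or another feature behind that number was not tested.

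**Figure D3:**
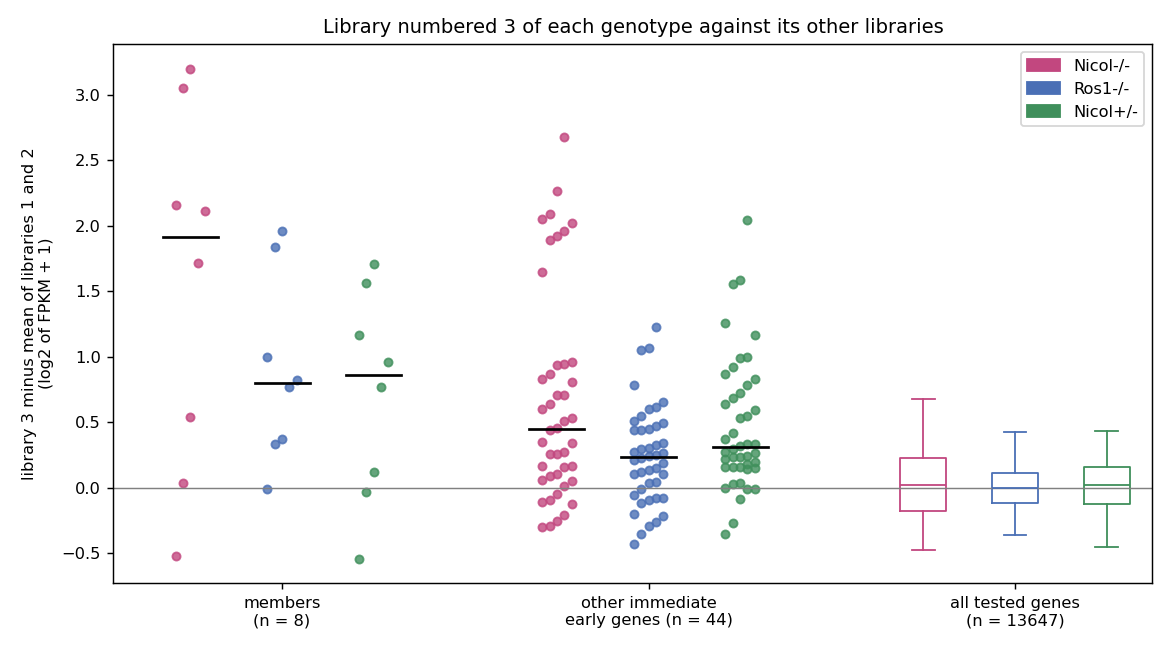
Level in the library numbered 3 minus the mean of libraries 1 and 2 of the same genotype (y axis, log2 of FPKM + 1) for the 8 tested genes, the 44 other immediate early genes and all 13647 tested genes, by genotype in colour. Points are genes and black bars medians; boxes give the quartiles and whiskers the 5th and 95th percentiles of all genes. The medians of the 8 genes are 1.91 in Nicol-/-, 0.8 in Ros1-/- and 0.86 in Nicol+/-, all above the boxes of all genes.

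Each comparison was therefore also fitted without the 3 libraries numbered 3, a choice made after seeing the data, which leaves 2 libraries a genotype. These same genes stood high in the libraries left out, so a smaller spread of these genes was built into the choice. Adjusted p from fits without libraries numbered 3, here and below, describe the remaining libraries and are no independent support for a difference. In Ros1-/- against Nicol+/-, 5 of 8 genes were then called lower (Fos, Fosb, Jun, Junb and Egr1), beside 9.21% of all tested genes, and Fosl2 was called higher, beside 6.69%. In Nicol-/- against Nicol+/-, Fosb was called lower, beside 7.64% of all genes, and Fosl2 higher, beside 4.75%. In Ros1-/- against Nicol-/-, Egr1 and Fos were called lower, beside 0.659% of all genes. With Nicol-/- replicate 3 alone left out, whose spread enters the shared error, Fos, Fosb, Jun and Junb were called lower in Ros1-/- against Nicol+/- (limma adjusted p = 0.0228, 0.00554, 0.0335 and 0.0413).

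**Figure D4:**
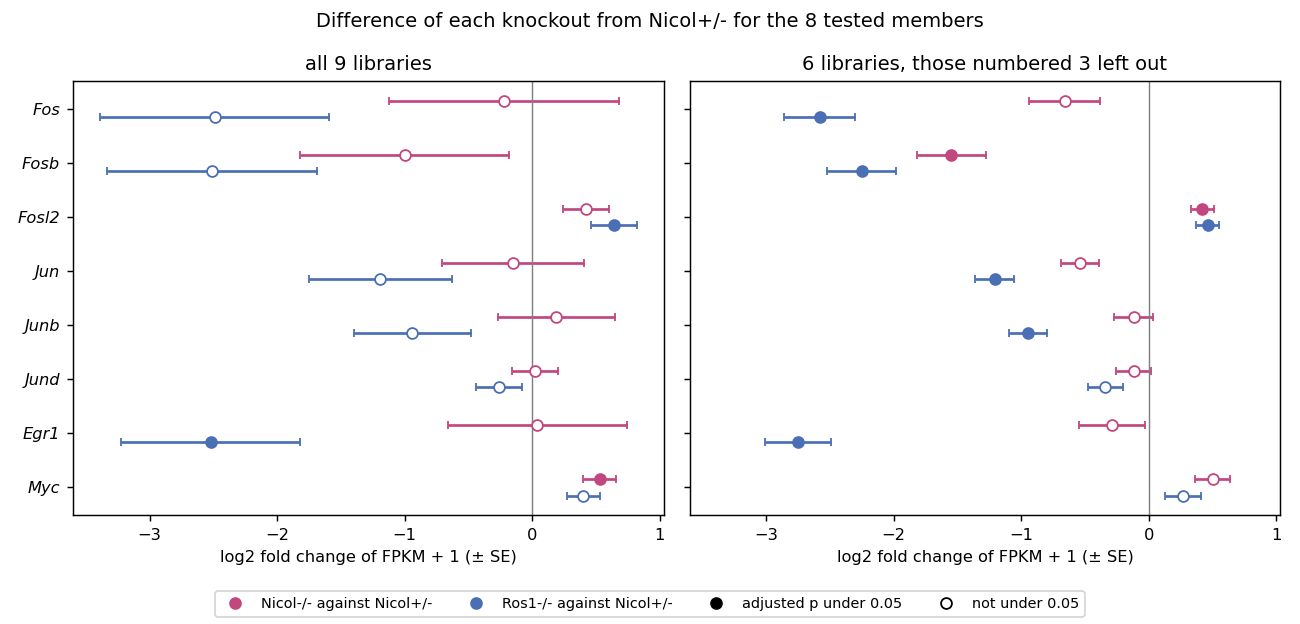
log2 fold change of FPKM + 1 against Nicol+/- (x axis, points with SE from limma) of the 8 tested genes (rows) in Nicol-/- and Ros1-/-; the left panel uses all 9 libraries, the right panel leaves out those numbered 3, and filled points have an adjusted p under 0.05. For Fos in Ros1-/- the value is -2.49 in the left panel and -2.58 in the right one, while its SE is 0.9 and 0.28. The libraries left out were those in which these genes stood high, so the smaller SE follows from that choice.

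Fos, the prototype FOS protein gene (NCBI gene 14281, chr12:85473890-85477274 on GRCm38.p6), had 16.9, 10.5 and 118 FPKM in Nicol-/-, 3.88, 1.98 and 13.8 FPKM in Ros1-/- and 20.8, 22.7 and 73.1 FPKM in Nicol+/- (replicates 1, 2 and 3). Every Ros1-/- library was below every Nicol+/- library, while Nicol-/- had its replicates 1 and 2 below all Nicol+/- libraries and its replicate 3 above them. The fold change in Ros1-/- was -2.49 ± 0.9 (SE) with a limma adjusted p of 0.0761, and without the libraries numbered 3 it was -2.58 ± 0.28 with an adjusted p of 0.0017. In Nicol-/- it was -0.22 ± 0.9 (adjusted p = 0.889). Ros1-/- stood at -2.28 ± 0.9 against Nicol-/-, with an adjusted p of 0.241, and at -1.91 ± 0.28 with an adjusted p of 0.038 without the libraries numbered 3.

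Fosb, whose product forms AP-1 like FOS (NCBI gene 14282, chr7:19302696-19310118 on GRCm38.p6), was at 2.41, 0.889 and 22.3 FPKM in Nicol-/-, 0.635, 0.496 and 1.67 FPKM in Ros1-/- and 5.98, 6.90 and 21 FPKM in Nicol+/-. Ros1-/- did not overlap Nicol+/-, and replicates 1 and 2 of Nicol-/- were below all Nicol+/- libraries while replicate 3 was above them. Its fold change was -2.51 ± 0.82 in Ros1-/- (adjusted p = 0.0553) and -1.0 ± 0.82 in Nicol-/- (adjusted p = 0.413) by limma. Without the libraries numbered 3 both were called, at -2.25 ± 0.27 in Ros1-/- (adjusted p = 0.00269) and -1.55 ± 0.27 in Nicol-/- (adjusted p = 0.0145). With Nicol-/- replicate 3 alone left out, the highest Nicol-/- library, the Nicol-/- value was -2.07 (limma adjusted p = 0.026). Nicol+/- replicate 3 stayed in that fit, so a lower Nicol-/- level was built into the choice and the call is no support. With the replicate block over the 6 libraries compared, Fosb in Nicol-/- was not called (-1.0 ± 0.37, adjusted p = 0.126).

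Fosl2, which encodes the late FOS protein FRA2 (NCBI gene 14284, chr5:32136472-32157840 on GRCm38.p6), ran against the other Fos genes in Ros1-/-. It had 15.3, 16.8 and 10.8 FPKM in Nicol-/-, 16.2, 16.8 and 16.4 FPKM in Ros1-/- and 11.6, 11.9 and 7.74 FPKM in Nicol+/-. All Ros1-/- libraries were above all Nicol+/- libraries, and Nicol-/- replicate 3 lay within the Nicol+/- range. Fosl2 rose by 0.64 ± 0.18 in Ros1-/- (limma adjusted p = 0.0332), and the call was lost without any single Ros1-/- library or without Nicol+/- replicate 3, with adjusted p of 0.0892, 0.0874, 0.077 and 0.0987. In Nicol-/- the value was 0.42 ± 0.18 (adjusted p = 0.123). Once the replicate number was fitted as a block, pairing Nicol-/- with Nicol+/- libraries, it was called (0.42 ± 0.1, adjusted p = 0.0455).

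Jun, whose product pairs with itself or with FOS proteins (NCBI gene 16476, chr4:95049036-95052222 on GRCm38.p6), had 25.9, 34.2 and 132 FPKM in Nicol-/-, 20, 16.8 and 37.6 FPKM in Ros1-/- and 40.9, 46.5 and 85.8 FPKM in Nicol+/-. All Ros1-/- libraries were below all Nicol+/- libraries, by a narrow margin between Ros1-/- replicate 3 and Nicol+/- replicate 1. The limma value in Ros1-/- was -1.19 ± 0.56 (adjusted p = 0.16) with all libraries and -1.21 ± 0.15 (adjusted p = 0.00341) without those numbered 3. In Nicol-/- it was -0.15 ± 0.56 (adjusted p = 0.872), and -0.54 ± 0.15 (adjusted p = 0.067) without those numbered 3.

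Junb, an AP-1 member that can counter JUN (NCBI gene 16477, chr8:84976909-84978748 on GRCm38.p6), stood at 48.5, 54.3 and 170 FPKM in Nicol-/-, 31.3, 25.8 and 51.0 FPKM in Ros1-/- and 49.0, 64.0 and 95.9 FPKM in Nicol+/-. Ros1-/- replicate 3 reached into the Nicol+/- range and the other Ros1-/- libraries did not. Its limma value was -0.94 ± 0.46 in Ros1-/- (adjusted p = 0.177), and -0.95 ± 0.15 (adjusted p = 0.00848) without the libraries numbered 3. In Nicol-/- it was 0.19 ± 0.46 (adjusted p = 0.801).

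Jund, the steady member of the family (NCBI gene 16478, chr8:70697739-70700616 on GRCm38.p6), varied least among the Jun genes in the means of the 3 genotypes. It had 50.5, 56.2 and 77.8 FPKM in Nicol-/-, 50, 42.0 and 57.8 FPKM in Ros1-/- and 51.2, 65.8 and 63.2 FPKM in Nicol+/-, and the genotypes overlapped. The limma value was 0.02 ± 0.18 in Nicol-/- (adjusted p = 0.955) and -0.26 ± 0.18 in Ros1-/- (adjusted p = 0.307).

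The make-up of the AP-1 transcripts differed between libraries accordingly. Summed over the 7 Fos and Jun family genes, the level was 159, 173 and 531 FPKM in Nicol-/-, 122, 104 and 178 FPKM in Ros1-/- and 180, 218 and 347 FPKM in Nicol+/-. The Fos family made up 21.7, 16.3 and 28.4% of this sum in Nicol-/-, 17, 18.6 and 17.9% in Ros1-/- and 21.4, 19.1 and 29.4% in Nicol+/-. Within the Fos family, Fosl2 accounted for 44.1, 59.6 and 7.19% in Nicol-/-, 78.2, 87.2 and 51.4% in Ros1-/- and 30.1, 28.7 and 7.59% in Nicol+/-. Fosl2 was thus the main Fos family transcript in all Ros1-/- libraries, in Nicol-/- replicate 2 and in no Nicol+/- library. In Nicol-/- replicates 1 and 3 Fos took the larger share (48.9 and 78.0%). These shares are of transcripts, and protein was not measured here.

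**Figure D5:**
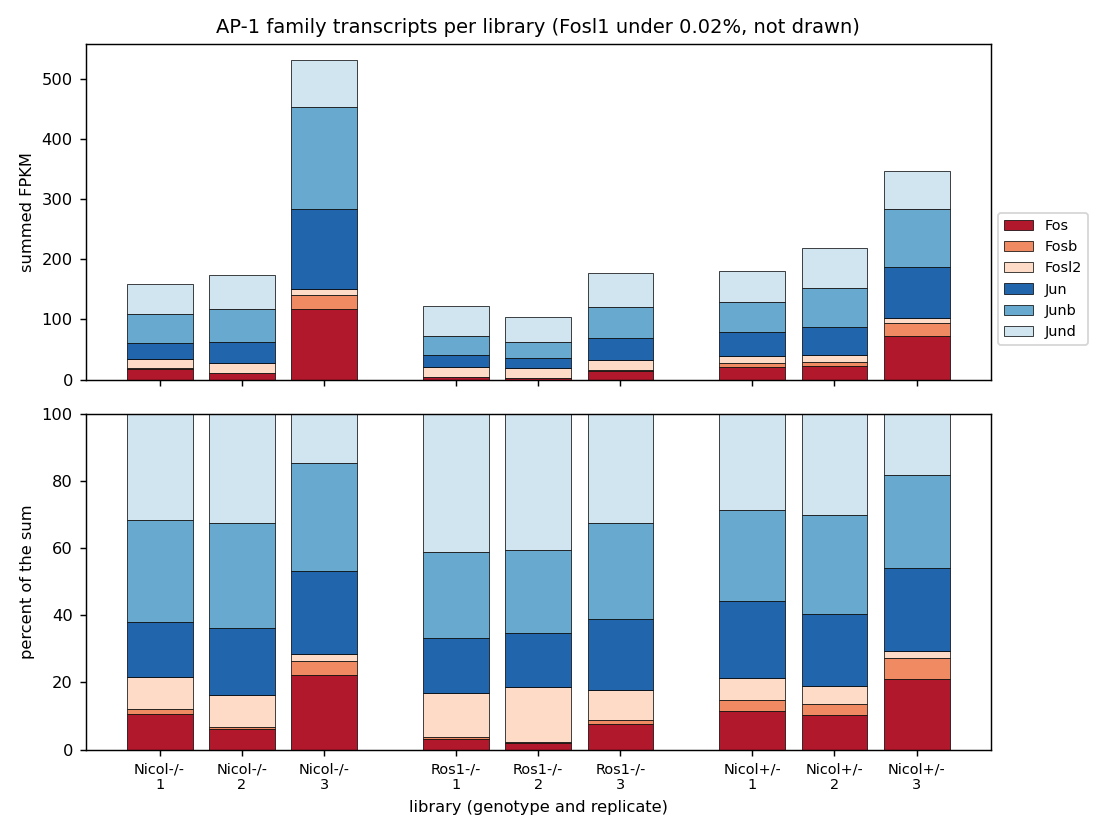
Summed normalized FPKM of the AP-1 genes (upper panel, y axis from 0) and the percent of the sum each gene takes (lower panel) in the 9 libraries (x axis, genotype and replicate). The tallest bars are replicate 3 of Nicol-/- (531 FPKM) and of Nicol+/- (347 FPKM), and Ros1-/- bars are 122, 104 and 178 FPKM.

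EGR1 is the zinc finger activator that growth factors induce alongside FOS. Egr1 levels (NCBI gene 13653, chr18:34861207-34864956 on GRCm38.p6) were 25.6, 44.8 and 154 FPKM in Nicol-/-, 6.12, 4.62 and 21.6 FPKM in Ros1-/- and 37.4, 46.1 and 94.2 FPKM in Nicol+/-. Every Ros1-/- library was below every library of the other genotypes, while Nicol-/- spanned the Nicol+/- range. Egr1 fell by 2.52 ± 0.7 on the log2 scale in Ros1-/- against Nicol+/- (limma adjusted p = 0.0306). This call was lost without Ros1-/- replicate 1 (adjusted p = 0.103), Ros1-/- replicate 2 (0.0983), Nicol+/- replicate 2 (0.058) or Nicol+/- replicate 3 (0.111), and without the 3 libraries numbered 3 it stood at -2.75 ± 0.26 (adjusted p = 0.000995). Against Nicol-/- the value in Ros1-/- was -2.57 ± 0.7 (adjusted p = 0.104), and -2.46 ± 0.26 with an adjusted p of 0.0165 without the libraries numbered 3. In Nicol-/- it was 0.04 ± 0.7 (adjusted p = 0.971). Egr2, outside the genes described and on the list of other immediate early genes, differed from Egr1. It had 111, 103 and 128 FPKM in Nicol-/-, 115, 106 and 131 FPKM in Ros1-/- and 152, 180 and 200 FPKM in Nicol+/-. Limma called Egr2 lower in both knockouts, at -0.63 in Nicol-/- (adjusted p = 0.00918) and -0.59 in Ros1-/- (adjusted p = 0.0111). Its calls under the alternative fits are not given here.

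Myc (NCBI gene 17869, chr15:61985341-61990361 on GRCm38.p6) was low in all libraries. It had 3.4, 2.7 and 3.14 FPKM in Nicol-/-, 2.57, 2.30 and 3.43 FPKM in Ros1-/- and 1.97, 1.73 and 1.78 FPKM in Nicol+/-. All libraries of both knockouts were above all Nicol+/- libraries, and replicate 3 was the highest in Ros1-/- only. Myc rose by 0.53 ± 0.13 in Nicol-/- (limma adjusted p = 0.0235). The call was lost without Nicol-/- replicate 1 (adjusted p = 0.0719), Nicol+/- replicate 2 (0.0634) or Nicol+/- replicate 3 (0.0712), and with the replicate block (0.53 ± 0.14, adjusted p = 0.0586). With that block Fosl2 in place of Myc made 1 gene called higher of the 8, beside 5.49% of all tested genes. In Ros1-/- the value was 0.40 ± 0.13 (adjusted p = 0.055).

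Counted by library overlap, 4 of the 8 genes (Fos, Fosb, Jun and Egr1) were lower in every Ros1-/- than in every Nicol+/- library and 2 (Fosl2 and Myc) higher in every one, beside 23.8% and 22.5% of all tested genes. In Nicol-/- against Nicol+/- 0 genes were lower and 1, Myc, higher without overlap, beside 20.2% and 17.5%. In Ros1-/- against Nicol-/- Egr1 alone was lower without overlap, beside 12%, and 0 were higher, beside 11.6%.

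The genes whose pattern over the 9 libraries lay nearest were found by the root mean square difference of centred log2(FPKM + 1), among 9361 tested genes with a mean of at least 5 FPKM. Jun was nearest to Ier2 (0.097), an immediate early gene, Zfp36 (0.182), which encodes an RNA-binding protein that destabilises transcripts, and Junb (0.208). Junb was nearest to Zfp36 (0.172), the antiproliferative gene Btg2 (0.205) and Jun (0.208). Fos lay nearest to Egr1 (0.47), Fosb (0.513) and Cyr61 (0.663), and Egr1 to Fos (0.47), Cyr61 (0.635) and Ier2 (0.656). Fosb lay nearest to Fos (0.513), Spink13 (0.625) and the fibrinogen chain gene Fga (0.668). The genes outside this cluster had other neighbours, which were Tbx3os2 (0.081), Ralgds (0.093) and Sfxn3 (0.094) for Fosl2, Tm4sf1 (0.076), Spr (0.083) and Msrb2 (0.1) for Jund and Ahnak (0.064), Rbm43 (0.083) and Cxcl12 (0.102) for Myc. Ier2, the neighbour of Jun, had 23.9, 34.0 and 141 FPKM in Nicol-/-, 17.9, 14.2 and 34.0 FPKM in Ros1-/- and 40.4, 46.9 and 78.0 FPKM in Nicol+/-. The likeness includes both the difference between genotypes and that of the libraries numbered 3. It also depends on how much a gene varied, so its values cannot be compared directly between these genes. The root mean square of the centred values was 1.584 for Fos, 1.477 for Egr1, 1.447 for Fosb, 0.875 for Jun and 0.753 for Junb. For Fosl2 it was 0.337, for Myc 0.256 and for Jund 0.243.

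Among 44 tested genes on the list of other immediate early genes, the calls were 7 lower and 3 higher for Nicol-/- while Ros1-/- had 11 lower and 0 higher, each against the shared Nicol+/- libraries. As shares of the 44 these stand beside the 11.9% lower and 8.95% higher of all tested genes in Nicol-/- and the 13.3% lower and 9.52% higher in Ros1-/-, and the Nicol-/- counts are near them. Their median fold changes were 0.09 and -0.42, against 0.00 and 0.01 for all tested genes, and without the libraries numbered 3 Nicol-/- had 6 lower and 3 higher, whereas Ros1-/- had 16 lower and 0 higher, beside 9.21% lower among all tested genes in Ros1-/-. For Nicol-/- the shares of all tested genes without those libraries were 7.64% lower and 4.75% higher. Phlda1, a pleckstrin homology-like protein gene, fell in both knockouts, with 26.5, 22.9 and 19.7 FPKM in Nicol-/-, 20.8, 21.6 and 20 FPKM in Ros1-/- and 55.5, 61.5 and 65.1 FPKM in Nicol+/- (adjusted p = 4.59e-05 and 2.15e-05). Cebpb, a bZIP factor gene, fell by 1.44 in Nicol-/- (adjusted p = 0.000207) and by 1.83 in Ros1-/- (3.74e-05), and Ier3 fell by 2.13 in Ros1-/- (0.0011) and by 0.95 in Nicol-/- (0.0492). Leaving out any single library but Nicol-/- replicate 3 or Nicol+/- replicate 1 ended this last call, with an adjusted p of up to 0.163. For Phlda1 and Cebpb, replicate 3 was not set apart as it was for Fos. Zfp36l1, Pim1 and Gadd45b were the genes called higher in Nicol-/-, by 0.49 (adjusted p = 0.000914), 0.79 (0.00745) and 0.83 (0.0454). The call of Gadd45b was lost without any single library but Nicol-/- replicate 1 (adjusted p up to 0.144), with the replicate block (adjusted p = 0.0656) and without the libraries numbered 3 (0.246). Zfp36l1 was the gene of this list called between the knockouts, at -0.51 in Ros1-/- (adjusted p = 0.0126), lost without Ros1-/- replicate 1 or 2 (adjusted p up to 0.0641) and without the libraries numbered 3 (0.0514).

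Of 17 tested AP-1 partners and other small bZIP factor genes, Nicol-/- had 3 called lower and 0 higher, and for Ros1-/- there was 1 lower and 0 higher, with medians of 0.01 and -0.04, beside the background of 11.9% lower in Nicol-/- and 13.3% in Ros1-/-. The stress response factor gene Atf5 fell by 0.70 in Nicol-/- (adjusted p = 0.0214) and by 0.55 in Ros1-/- (0.0457). Atf6 fell by 0.43 and Atf4 by 0.30 in Nicol-/- (adjusted p = 0.0206 and 0.0371), and with the replicate block neither was called (0.0856 and 0.146), which left 1 of the 17 lower. Under that block 981 of all 13647 tested genes were lower in Nicol-/-. The Atf5 call was lost without Nicol-/- replicate 1 or 2 or Nicol+/- replicate 2 or 3 in Nicol-/- (adjusted p up to 0.0682), and without Nicol-/- replicate 1, Nicol+/- replicate 2 or 3 or any Ros1-/- library in Ros1-/- (up to 0.147). The Atf6 call was lost without Nicol+/- replicate 3 (0.0642) and the Atf4 call without any library but Nicol-/- replicate 3 or Nicol+/- replicate 1 (up to 0.112). Without the libraries numbered 3 the calls of Atf6 (0.0829), Atf4 (0.125) and, in Ros1-/-, Atf5 (0.0947) were lost.

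Upstream, of 29 genes of serum response factor, the ternary complex factors and the kinases, the count for Nicol-/- was 3 lower, 2 higher, and that for Ros1-/- was 4 lower, 2 higher, with medians of -0.09 and -0.05. These counts are near the background shares of 11.9% lower and 8.95% higher in Nicol-/- and 13.3% and 9.52% in Ros1-/-. Rps6ka2, an ERK-activated S6 kinase gene, had 4.41, 3.70 and 3.76 FPKM in Nicol-/-, 2.92, 3.02 and 3.62 FPKM in Ros1-/- and 7.67, 7.04 and 9.53 FPKM in Nicol+/-, and it fell in both knockouts (adjusted p = 0.00176 and 0.000328). Map2k1, the kinase MEK1 that activates ERK, fell by 0.30 in Ros1-/- (adjusted p = 0.0132, 0.0612 without Ros1-/- replicate 1 and 0.0812 without the libraries numbered 3). The p38 kinase activators Map2k3 and Map2k6 rose by 0.45 and 0.66 in Ros1-/- (adjusted p = 0.00257 and 0.0102). In Nicol-/- the genes called higher were Map2k3 (0.24, adjusted p = 0.0461) and Srf (0.32, adjusted p = 0.0414). Both calls were lost in most fits that left out a library, Map2k3 without any but Nicol-/- replicate 2 or Nicol+/- replicate 2 (adjusted p up to 0.14) and Srf without any but Nicol-/- replicate 3 or Ros1-/- replicate 2 or 3 (up to 0.139). With the replicate block neither was called (0.196 and 0.0883), nor without the libraries numbered 3 (0.218 and 0.0819), and under the block the counts of this list were 1 lower and 0 higher. Of all 13647 tested genes, 981 were lower and 749 higher in Nicol-/- under that block.

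Genes of ERK feedback and ETS factors, given for comparison, were mostly called lower in both knockouts. Of 16 tested, Nicol-/- had 13 lower and 1 higher, and Ros1-/- likewise 13 lower with 0 higher, beside 11.9% and 13.3% lower among all tested genes, with medians of -1.22 and -1.59. Dusp7 and Ets2 passed in neither knockout. Between the knockouts, the ETS factor gene Etv1 was the 1 gene of this list called. Etv1 was lower in Ros1-/- than in Nicol-/-, at -0.9 (limma adjusted p = 0.0312), beside 1.55% of all tested genes called in either direction. With the replicate block over the 6 libraries compared, or without the libraries numbered 3, 0 of this list were called between the knockouts. Etv5, an ETS factor gene, had 2.7, 3.54 and 5.95 FPKM in Nicol-/-, 1.92, 2.01 and 1.49 FPKM in Ros1-/- and 148, 150 and 195 FPKM in Nicol+/- (adjusted p = 8.34e-07 and 3.06e-07). In Nicol-/- and in Ros1-/- the fold changes were -5.23 and -5.21 for Etv4, another ETS factor gene, -2.88 and -3.19 for the ERK phosphatase gene Dusp6, and -1.79 and -1.88 for the feedback inhibitor gene Spry1, all called. Il17rd was the gene called higher in Nicol-/- (0.49, adjusted p = 0.0187), and that call was lost with the replicate block (0.103), without the libraries numbered 3 (0.0556) and without Nicol-/- replicate 1 or 2 or Nicol+/- replicate 2 (up to 0.0562). Whether the difference between these genes and the AP-1 genes exceeds the spread was not tested.

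Downstream, 20 of 30 genes with AP-1 sites in well studied promoters were tested, of which 5 were lower with 4 higher for Nicol-/-, and 6 lower with 1 higher for Ros1-/-, beside 11.9% and 8.95% of all tested genes in Nicol-/- and 13.3% and 9.52% in Ros1-/-, with medians of 0.21 and -0.03. Ccnd1, the cyclin D1 gene, fell by 0.94 in Nicol-/- (adjusted p = 0.000824) and by 1.43 in Ros1-/- (5.19e-05). In Nicol-/- and in Ros1-/- the fold changes were -0.95 and -1.65 for the fibronectin gene Fn1 and -1.06 and -1.43 for the EGF receptor ligand gene Hbegf (adjusted p between 0.000331 and 0.00913), of which the Hbegf call in Nicol-/- was lost without the libraries numbered 3 (0.0532). Lor, the loricrin gene, was low, with 0.271 to 0.698 FPKM in Nicol-/-, 0.334 to 0.642 FPKM in Ros1-/- and 1.86 to 3.56 FPKM in Nicol+/-, and it fell in both. The genes called higher in Nicol-/- were the cell cycle inhibitor gene Cdkn1a (0.68), the protease inhibitor gene Timp1 (1.11) and the matrix protease genes Mmp2 (0.74) and Mmp9 (0.55, lost with the replicate block, adjusted p = 0.058), and Cdkn1a was also called higher in Ros1-/- (0.69). Without the libraries numbered 3, 0 of this list were called higher in either knockout, with adjusted p of 0.121 for Cdkn1a, 0.137 for Timp1, 0.145 for Mmp2 and 0.07 for Mmp9 in Nicol-/-. Leaving out single libraries raised the adjusted p in Nicol-/- to 0.0671 for Cdkn1a (lost without Nicol-/- replicate 1 or 3 or any Nicol+/- library), 0.085 for Timp1 (without Nicol-/- replicate 2 or 3 or Nicol+/- replicate 1 or 3) and 0.108 for Mmp2 (without any but Nicol-/- replicate 2). In Ros1-/- the Cdkn1a call was lost without Ros1-/- replicate 1 or 3 or Nicol+/- replicate 3 (adjusted p up to 0.0746) and without the libraries numbered 3 (0.0606).

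The corepressors of EGR1 split in Ros1-/-, where Nab1 fell by 0.47 (adjusted p = 0.0247) and Nab2 rose by 0.39 (adjusted p = 0.0407). The Nab2 call was lost without the libraries numbered 3 (adjusted p = 0.226), without Nicol-/- replicate 1, Ros1-/- replicate 2 or 3 or Nicol+/- replicate 1 or 3 (up to 0.133). The Nab1 call was lost without any single Ros1-/- library or Nicol+/- replicate 2 or 3 (up to 0.0937). Neither was called in Nicol-/-.

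Of 16 MYC partners and antagonists, Nicol-/- had 1 lower, 2 higher, and Ros1-/- had 1 lower, 3 higher, with medians of 0.01 and 0.07, beside the background of 8.95% higher in Nicol-/- and 9.52% in Ros1-/-. Mycl, the L-MYC gene, had 12.2, 16.1 and 14.3 FPKM in Nicol-/-, 11.4, 12.9 and 11.3 FPKM in Ros1-/- and 8.01, 8.13 and 5.12 FPKM in Nicol+/-. It rose by 0.93 in Nicol-/- (adjusted p = 0.00491) and by 0.69 in Ros1-/- (adjusted p = 0.016), and without Ros1-/- replicate 2 the call in Ros1-/- was lost (0.0579). In Ros1-/- Mlxipl, which encodes a glucose-responsive factor of the MYC network, rose by 0.64 (adjusted p = 0.00119) and the MYC antagonist gene Mxd4 fell by 0.64 (adjusted p = 0.00548). Mycbp fell by 0.34 in Nicol-/- (adjusted p = 0.0228), a call lost with the replicate block (0.0915), without the libraries numbered 3 (0.0833) and without any single Nicol+/- library (up to 0.072). Of 35 MYC target genes of ribosome making and growth, the count was 2 lower with 4 higher for Nicol-/-, and 4 lower with 5 higher for Ros1-/-, with medians of 0.00 and 0.03. These too are near the background of 11.9% lower and 8.95% higher in Nicol-/- and 13.3% and 9.52% in Ros1-/-, and the replicate block left 0 lower and 2 higher in Nicol-/-. Of all 13647 tested genes, that block left 981 lower and 749 higher in Nicol-/-. Ldha, lactate dehydrogenase A, rose by 0.64 in Nicol-/- and 0.58 in Ros1-/-, and Gnl3, nucleostemin, by 0.33 and 0.46. The Gnl3 call in Nicol-/- was lost under the block (adjusted p = 0.104), without the libraries numbered 3 (0.109) and without Nicol-/- replicate 2 or Nicol+/- replicate 2 or 3 (up to 0.0799). Ccnd2, the cyclin D2 gene, was called in opposite directions, higher by 0.51 in Nicol-/- (adjusted p = 0.00975) and at -0.66 in Ros1-/- (adjusted p = 0.00239). Without the libraries numbered 3 its call in Nicol-/- was lost (adjusted p = 0.0751). The transferrin receptor gene Tfrc fell by 0.67 in Ros1-/- (adjusted p = 0.00558). Bop1, a ribosome assembly gene, was called lower in both knockouts, at -0.25 in Nicol-/- (adjusted p = 0.0405) and -0.3 in Ros1-/- (0.0187). The mitochondrial transcription factor gene Tfb2m was at -0.41 in Nicol-/- (0.0237) and the mitochondrial chaperonin gene Hspd1 at -0.29 in Ros1-/- (0.0399). In Nicol-/- the calls of Bop1 and Tfb2m were lost with the replicate block (0.169 and 0.0674) and without the libraries numbered 3 (0.0522 and 0.129), Bop1 also without any single library but Nicol-/- replicate 3 (up to 0.0995) and Tfb2m without Nicol-/- replicate 1 or 3 or Nicol+/- replicate 2 or 3 (up to 0.0728). In Ros1-/- Bop1 was lost without Ros1-/- replicate 1 or 3 or Nicol+/- replicate 1 or 2 (up to 0.0777), and Hspd1 without the libraries numbered 3 (0.224) or any single library but Nicol-/- replicate 3 or Nicol+/- replicate 1 (up to 0.132).

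The labels were checked on the targeted genes. Gm1673 was listed at 0 in all Nicol-/- libraries, at 16.6 to 19.6 FPKM in Ros1-/- and at 6.05 to 9.09 FPKM in Nicol+/-, and Ros1 was at 16.8 to 24.7 FPKM in Nicol-/-, 8.06 to 9.32 FPKM in Ros1-/- and 40.7 to 48.0 FPKM in Nicol+/-. Reads over Ros1 thus remained in Ros1-/-, and where in the gene they lie was not analysed here. The tissue is a mixture, in which fewer cells of a type and less RNA per cell cannot be told apart. Initial segment markers summed to 49.1 to 55.4 FPKM in Nicol-/-, 45.5 to 49.6 FPKM in Ros1-/- and 17712 to 30637 FPKM in Nicol+/-. Endothelial markers summed to 72.2 to 81.9, 79.4 to 85.6 and 122 to 159 FPKM in Nicol-/-, Ros1-/- and Nicol+/-. In Nicol-/- and Ros1-/-, 6 of 12 and 8 of 12 of these genes were called lower, beside 11.9% and 13.3% of all tested genes. Of 11 tested smooth muscle markers, 8 were called higher and 1, the smooth muscle gamma actin gene Actg2, lower in Nicol-/-. In Ros1-/- 2 were lower and 1, Synm, higher. Of all tested genes, 8.95% were called higher and 11.9% lower in Nicol-/-, and 9.52% and 13.3% in Ros1-/-. Actg2 had 44.3 to 46.3 FPKM in Nicol-/-, 25.2 to 32.0 FPKM in Ros1-/- and 1037 to 1329 FPKM in Nicol+/-. Without Actg2 the smooth muscle sum was 1073 to 1250 FPKM in Nicol-/-, 660 to 750 FPKM in Ros1-/- and 638 to 853 FPKM in Nicol+/-, and with it 1117 to 1296, 692 to 775 and 1850 to 1967 FPKM, so this 1 gene set the order of the full sums. Germ cell markers summed to 279 to 731 FPKM in Nicol-/-, 322 to 785 FPKM in Ros1-/- and 122 to 178 FPKM in Nicol+/-. None of the defining markers on these lists was at 0 in every library. Of the fibroblast markers, 4 of 10 were highest in the libraries numbered 3 of every genotype, beside 6.31% of all tested genes. So were 2 of 5 initial segment markers, 3 of 12 germ cell markers, 1 of 11 macrophage markers and 1 of 12 heat shock genes. The median difference of initial segment markers between replicate 3 and the mean of replicates 1 and 2 was 0.05 (log2) in Nicol-/-, 0.05 in Ros1-/- and 0.57 in Nicol+/-. In Nicol-/- replicate 3, where the 8 genes stood highest above replicates 1 and 2, the median difference was also 1.04 (log2) for germ cell markers, 0.69 for macrophage markers, 0.22 for fibroblast markers, -0.63 for caput principal cell markers and -2.4 for the 3 blood markers. In Ros1-/- replicate 3 the medians of these lists were 0.99, 0.04, 0.37, -0.23 and 0.26, and in Nicol+/- replicate 3 they were -0.17, -0.03, 0.35, 0.23 and 0.06. The ribosomal RNA precursor Rn45s was at 1922 to 2579 FPKM in Nicol-/-, 4700 to 17294 FPKM in Ros1-/- and 592 to 1185 FPKM in Nicol+/-, highest in Ros1-/-. The part of these cell types and of the Rn45s level in the values of Fos, Fosb, Jun, Junb and Egr1 was not tested.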

How the data were processed

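Libraries were TruSeq stranded mRNA, sequenced as single-ended reads of 101 bases. Per the labels and the study's methods, the authors aligned reads to mm10 with TopHat2 2.1.1 and deposited FPKM values per gene from Cufflinks 2.2.1 that had been scaled between libraries. The same deposited table holds normalized gene counts, taken here as signal, which the authors had divided by a scaling factor, and these summed to 11985015 to 13358623 per library. From the steps between low values, in which 98.6 to 98.7% came out whole within 0.02 reads, the depth was estimated at 8189852 to 16594856 reads per library. The scaling method, the annotation, the strand setting and the treatment of reads that map to several places were named in no source used here, so a gene that overlaps an antisense transcript cannot be separated from it.

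Groups came from the sample labels. The series text speaks of 4 animals per genotype, and 3 libraries each were analysed. FPKM values were tested as log2(FPKM + 1) with limma 3.58.1 in R 4.3.3 (3 group means, 6 residual degrees of freedom, variances moderated towards a mean-variance trend), over genes with 1 FPKM or more in 3 or more libraries, with Benjamini-Hochberg adjustment over all genes of a comparison and a threshold of 0.05. An exact permutation test of 3 against 3 libraries cannot go below p = 0.1 and was not used. Same-numbered Nicol-/- and Nicol+/- libraries deviated together from their group means (correlations 0.194, 0.103 and 0.243 for numbers 1, 2 and 3). For these groups the number was therefore also fitted as a replicate block, as an alternative. The main fit, which gave the calls, had no block and ignored this possible pairing. The pairing comes from these correlations and not from a statement in the labels. The genes described and the gene lists were chosen with earlier results of these data known. Genes outside the 10 were named by a rule: from each list of immediate early, AP-1, EGR, MYC and ERK genes at most 4 with the smallest p in either knockout against Nicol+/-, any gene called against the direction of most calls of its list, the 3 genes nearest in pattern to each tested gene, the targeted genes, Rn45s and genes of the ERK comparison. Marker and heat shock lists are given as sums and counts, with Actg2 and Synm of smooth muscle named. Egr2, Dusp1, Snora16a and Snora31 were chosen after their values were seen. Promoter windows and coordinates were from RefSeq on GRCm38.p6, the assembly of mm10. The alternatives were other pseudocounts, filters, normalizations, variance models and sets of libraries, and each single library left out. Figures and tables were made with Python 3.11.15, numpy 2.4.6, pandas 2.3.3 and matplotlib 3.10.9.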

Additional observations from a re-analysis of the deposited data

How the results depend on the processing

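Of the values of the 8 tested genes under the alternatives, 472 kept direction and side of the threshold, 42 came past it, 16 lost it and 19 changed sign. All sign changes were in Nicol-/- against Nicol+/-, where none of the 5 genes concerned was called. With each single library left out, Fos ran from -1.23 to 0.45 there, Jun from -0.86 to 0.29, Junb from -0.38 to 0.52, Jund from -0.16 to 0.15 and Egr1 from -0.67 to 0.6 (log2). Without both knockout libraries numbered 3, Junb was -0.38, Jund -0.16 and Egr1 -0.67, and without the 3 libraries numbered 3, chosen after seeing the data, Junb was -0.12, Jund -0.12 and Egr1 -0.29.

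For Nicol-/- against Nicol+/-, leaving out single libraries gave 0 to 1 of the 8 genes lower and 0 to 2 higher, a filter of 5 FPKM gave 0 higher, leaving out both knockout libraries numbered 3 gave 1 lower and 2 higher, and leaving out all 3 libraries numbered 3 gave 1 lower. For Ros1-/- against Nicol+/-, single libraries left out gave 0 to 5 lower and 0 to 1 higher. The count of lower genes was 2 with a pseudocount of 0.1 or 0.5 and with normalized counts, 4 with the 6 libraries compared alone, 5 with a replicate block over 6 or 9 libraries and without both knockout libraries or all 3 libraries numbered 3, and 0 with no filter or robust variances. The count of higher genes was 2 with a pseudocount of 0.1, quantile normalization or no variance trend and 0 with no filter. For Ros1-/- against Nicol-/-, 3 were lower with a replicate block over 9 libraries and 2 without the 3 libraries numbered 3. Of all 13647 tested genes, 1715 were lower in Ros1-/- against Nicol+/- with the replicate block over 6 libraries. With single libraries left out, 1099 to 2150 of all tested genes were lower and 554 to 1743 higher in that comparison. In Nicol-/- against Nicol+/- these ranges were 954 to 1534 lower and 518 to 1070 higher. Without the 3 libraries numbered 3, 9.21% of all tested genes were lower in Ros1-/-, 7.64% in Nicol-/- and 0.659% in Ros1-/- against Nicol-/-. The remaining counts of this paragraph stand without the share of all genes and are not weighed against it. The cause of the shifts between settings was not tested.

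Same-numbered Ros1-/- libraries did not deviate together for every number with Nicol+/- (correlations -0.0439, 0.0134 and 0.0967) or with Nicol-/- (-0.0911, 0.129 and 0.1). Libraries of different number reached 0.135 with Nicol+/- and 0.242 with Nicol-/-, so over all genes no pairing could be read from these values. For Fos, Fosb, Jun, Junb and Egr1, replicate 3 was highest in all 3 genotypes, so the block does take up a difference these genes share. In Nicol-/- against Nicol+/- the block over 6 libraries changed no call of the 8 genes but those of Fosl2 and Myc. Over all genes, that comparison gave 1628 lower and 1221 higher, against 1083 and 649 with the 6 libraries alone, 981 and 749 with the replicate block and 1043 and 648 without the libraries numbered 3. Ros1-/- against Nicol-/- gave 157 lower and 55 higher, against 60 and 24 with the 6 libraries alone, 7 and 8 with the replicate block over them, 18 and 18 without both knockout libraries numbered 3, 5 to 180 and 4 to 112 with single libraries left out, and 90 lower with no filter or without the libraries numbered 3. Quantile normalization gave 1541 lower and 1613 higher in Ros1-/- against Nicol+/-, beside 1810 and 1299. The edgeR and DESeq2 alternatives were not run, because the deposited counts were already normalized.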
